A study of Mus musculus with 24 samples.

Results

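TFAP2A peaks were compared between 2 mouse melanoma cell lines, the Kmt2d WT line 971 and the Kmt2d mutant line 493, each profiled with 1 CUT&RUN library made with the same TFAP2A antibody. The members were all peaks of the 2 TFAP2A lists, 11636 in the WT line against 18530 in the mutant line. Together they made up 30166 of the 197727 peaks in the 22 lists of the series. CUT&RUN tethers a nuclease to chromatin through an antibody and sequences the released fragments. Both lines were kept in serum-containing DMEM/F12 medium with antibiotics, and neither received a drug or vector according to the labels. The labels name 1 line per genotype and do not describe the Kmt2d mutation, so the genotype cannot be told apart from any other difference between the lines. With 1 library per line and target there was no replicate check and no test. The intervals given are 95% Wilson intervals and cover counting error only.

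TFAP2A (AP-2 alpha) is a transcription factor that binds GC-rich palindromic sites as a dimer with itself or with close relatives such as TFAP2B. It is needed to form the neural crest, the embryonic cells from which melanocytes arise, and it works with MITF and SOX10 at pigment genes in that lineage. KCTD1 and KCTD15 bind AP-2 proteins and inhibit them, and CITED2 is a coactivator. KMT2D methylates lysine 4 of histone H3, chiefly at enhancers, in a complex with the demethylase UTX. ARID1A and SMARCC1 are subunits of SWI/SNF chromatin remodelling complexes, and H3K4me3 marks active promoters.

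Most WT TFAP2A sites were also called in the mutant line, and they were the strong sites. Of the WT peaks, 9598 (82.5%, interval 81.8 to 83.2) overlapped a mutant peak by at least 1 bp and 2038 did not. Of the mutant peaks, 9746 (52.6%, interval 51.9 to 53.3) overlapped a WT peak and 8784 did not. The mutant list held 1.59 times as many peaks and covered 8380 kb against 6313 kb, 1.33 times as much sequence. The depth at which peaks were called moved with this gap. Reconstructed from the deposited values, it was 1.19 M fragments (M for mega) in the WT line against 2.16 M in the mutant line. The caller had scaled the WT library by 0.638, from 1.87 M. Thinned to the WT depth, the mutant list kept 13839 peaks, 1.19 times the WT number, and 75.01% of WT peaks then overlapped one. This depth takes the shortest peak, 220 bp (WT) or 155 bp (mutant), as fragment length. The reconstructed backgrounds themselves had a WT to mutant ratio of 0.784. Thinned by that ratio (equal background), the mutant list kept 17381 peaks, 1.49 times the WT number, and 81.0% of WT peaks overlapped one.

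Sharing tracked the strength of a site within its own list. Fold enrichment, here the authors' own ratio of fragments at the summit to the local background, was used only to order peaks inside 1 list. In the weakest of 10 equal classes 56.4% of WT peaks and 16.5% of mutant peaks were shared. In the strongest class the shares were 98.9% and 97.4%. At shared sites the strengths in the 2 lists were correlated across sites, with a Spearman rank correlation of 0.675 over 9598 sites, 0.757 within 1 kb of a gene end and 0.604 farther than 5 kb. These sites come from the same 2 libraries and are not independent. Of the 971 shared WT peaks with the highest fold enrichment, the top 10%, 609 (62.7%) overlapped a mutant peak of the top 10%.

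**Figure D1:**
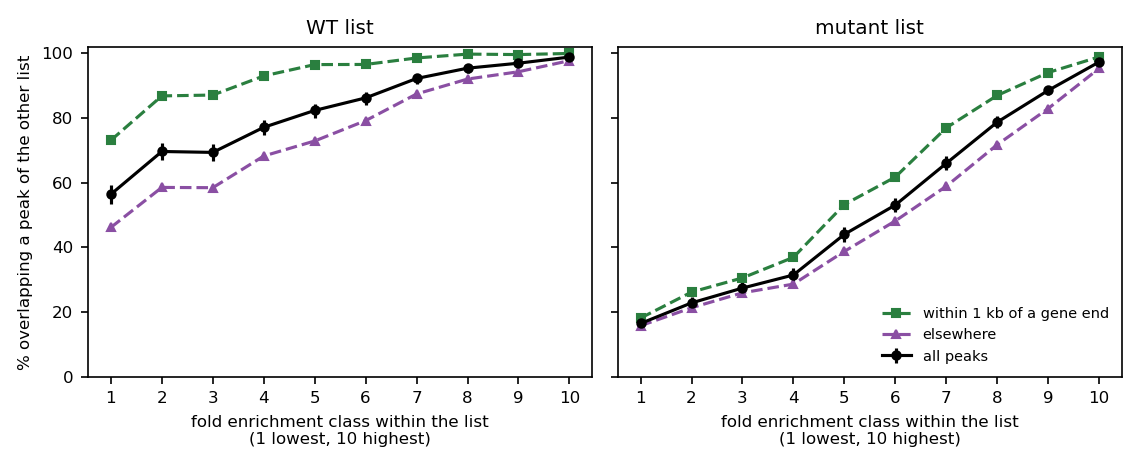
Share of TFAP2A peaks overlapping a peak of the other line's list (y axis, %) in 10 classes of fold enrichment within each list (x axis), for all peaks with Wilson 95% intervals and for peaks within 1 kb of a gene end or elsewhere. Sharing goes from 56.4% to 98.9% in the WT list and from 16.5% to 97.4% in the mutant list.

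The sites shared by both lines lay at gene ends far more often than the sites of 1 line. A gene end is either end of a protein-coding gene, since the gene table gives no strand, and a peak within 1 kb of one is called a gene-end peak. Gene-end peaks made up 47.5% of shared peaks in each list, 15.1% of WT-only peaks (interval 13.6 to 16.7) and 29.5% of mutant-only peaks (interval 28.6 to 30.5). Farther than 5 kb from any gene end lay 39.4% and 39.5% of shared peaks (WT and mutant list). The same distance class held 70.5% of WT-only and 55.2% of mutant-only peaks. Read by class, 93.7% of WT gene-end peaks were shared, against 81.1% at 1 to 5 kb, 73.7% at 5 to 50 kb and 69.4% beyond 50 kb. The mutant list gave 64.1%, 48.6%, 47.6% and 37.6% in the same order. Sites inside and between genes differed less: beyond 5 kb, 71.9% of WT peaks inside genes and 73.2% between genes were shared. At low strength this gap was present in the WT list and small in the mutant list. In the weakest class 73.1% of WT gene-end peaks and 46.2% of the other WT peaks were shared, while the mutant shares were 18.1% and 15.8%.

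Shared peaks were also wider. Their median width was 498 bp in the WT list against 515 bp in the mutant list, while WT-only peaks had a median of 325 bp and mutant-only peaks one of 251 bp. Width rose with strength, and the gap was smaller among weak peaks. In the weakest of 10 classes the shared and line-only medians were 322 and 289 bp (WT) and 234 and 193 bp (mutant). In the strongest they were 822 and 674 bp (WT) and 803 and 484 bp (mutant). A 1 bp overlap is also reached more easily by a wide peak. Widths set side by side across the lists carry a difference in the shortest peak called, 220 bp in the WT list against 155 bp in the mutant list. Widths over 1 kb were found for 9.05% of shared WT peaks and 0.687% of WT-only peaks. In the mutant list the same shares were 11.2% and 0.273%. Over 2 kb there were 45 shared peaks in the WT list, 55 in the mutant list and no line-only peak in either. Shared peaks at gene ends had medians of 550 bp (WT) and 616 bp (mutant).

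**Figure D2:**
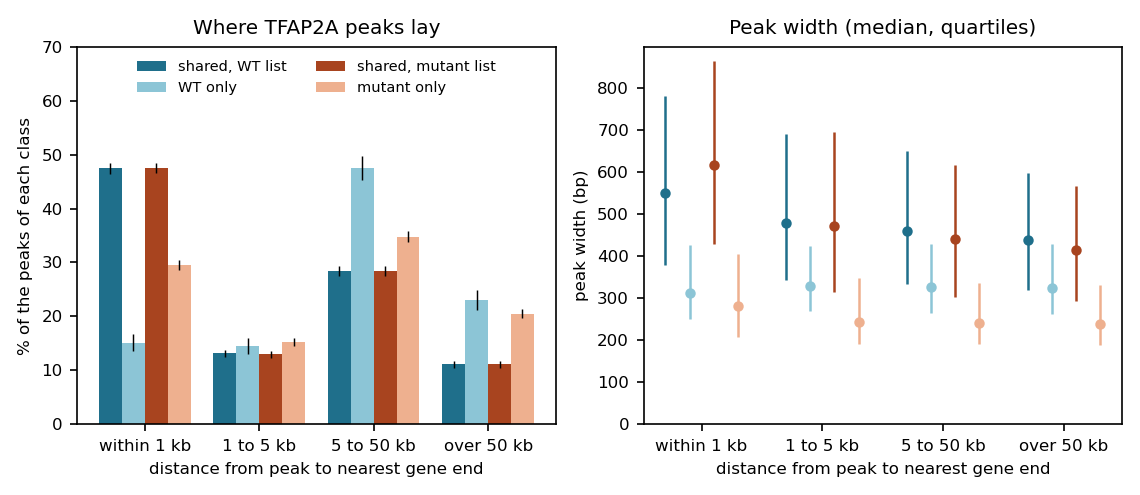
Left, percent of shared, WT-only and mutant-only TFAP2A peaks in 4 classes of distance to the nearest gene end, with Wilson 95% intervals as bars. Right, peak width in bp in the same classes, with points for the median and lines for the quartiles. Line-only peaks lie more often beyond 5 kb and have lower median widths in every class.

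The 5 widest peaks of each list lay at the same 5 places. They measured 3950 to 8379 bp and sat near the vomeronasal receptor genes Vmn1r2, Vmn1r77 (24135 bp away in the WT list) and Vmn1r238, near the desmosomal cadherin gene Dsg2 (10543 bp away in the WT list) and over 50 kb from the nearest gene end, that of Samd9l. At Vmn1r2 the peak was 8227 bp wide in the WT list against 8379 bp in the mutant list. Of the 22 lists, 3 held a peak at each of these places: TFAP2A in both lines and TFAP2B in the mutant line. Among all shared WT peaks, 4.27% had no peak of any library other than TFAP2A or TFAP2B. For WT-only peaks this share was 25.9% and for mutant-only peaks 22.6%.

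Gene-end sites strong in both lines were ranked by the lower of their ranks within the 2 lists, and the first 10 genes are given here. Rap2a (small GTPase of the RAS family, chromosome 14, 120478461 to 120507194 on mm10) carried the highest fold enrichment of the mutant list, 305, and 117 in the WT list. Zyx, which encodes the focal adhesion protein zyxin (chromosome 6, 42349511 to 42360213), had 130 in the WT list against 199 in the mutant list. Aco1, an aconitase that also binds iron-responsive RNA elements, had 128 and 177. Map3k12 (dual leucine zipper kinase) had 121 and 145, and Mxd1, a MAX partner that opposes MYC, had 94.3 and 175. The glycosidase-like gene Myorg had 96.6 and 151. Single peaks served the divergent pairs Gpr137c and Txndc16, with 104 and 182, and Tacc3 (spindle protein) and Tmem129, with 101.7 and 128. All 10 of these genes also carried H3K4me3 and ARID1A peaks in both lines and TFAP2B in the mutant line at the same place. The ratio has no common scale between lists, so these pairs of values do not say which line had more TFAP2A.

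Gene-end TFAP2A peaks present in 1 list were weaker. Among WT-only genes with no mutant TFAP2A peak within 5 kb, 163 in number, the highest fold enrichment was 12.6. It was reached at Cnksr1 (scaffold of RAS signalling), Sync (intermediate filament protein of muscle) and Btbd2. Next came Mfsd12, a lysosomal and melanosomal transporter that affects pigmentation, and its neighbour 4930404N11Rik, with 1 peak of 10.9. The cornified envelope genes Sprr2a1 and Sprr2a3, which have nearly the same promoter sequence, had 10.9 and 10.2. The ion channel Asic3 and the ribosomal protein gene Rpl32 had 10.4, and the protease Ctsz 9.53. The WT-only peaks at Cnksr1, Sync, Rpl32 and Ctsz overlapped WT H3K4me3, and those at the Sprr2a genes did not.

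Among the 1807 mutant-only genes under the same rule, values reached higher within their list. Eif1ax, a translation initiation factor on chromosome X (159372178 to 159389621), had 76.4. Cbwd1 had 42.5, the fatty acid transporter Slc27a6 36.4, the leukotriene synthase Ltc4s 34.8, the corepressor hairless (Hr) 33.1 and the bicarbonate transporter Slc4a7 31.4. Peli1, a ubiquitin ligase, had 29.7, the retromer subunit Vps26a 27.6, Ttll13 27.2 and the CCAAT-binding subunit Nfya 27.1. All 10 stayed mutant-only at equal depth. At Eif1ax, Peli1, Vps26a, Ttll13 and Nfya the place of the mutant TFAP2A peak held WT peaks of KMT2D and UTX, so it was called in the WT line for other targets. At Cbwd1, Slc27a6, Ltc4s and Slc4a7 no WT library had a peak there.

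Promoter sequences of a few of these genes are shown because the AP-2 recognition sequence differs in frequency between the gene groups. They come from RefSeq on GRCm38.p6 (mm10), run 5′ to 3′ on the gene's strand from 250 bases before the start to 50 after it, and are covered at least in part by the TFAP2A peak. Capitals mark GCCNNNGGC, the palindromic AP-2 consensus, which reads the same on both strands. The first 3 are the top genes marked in both lists, followed by Mxd1, chosen after its matches were seen, then 2 WT-only and 2 mutant-only genes.
Zyx promoter, chr6:42349578-42349877, + strand: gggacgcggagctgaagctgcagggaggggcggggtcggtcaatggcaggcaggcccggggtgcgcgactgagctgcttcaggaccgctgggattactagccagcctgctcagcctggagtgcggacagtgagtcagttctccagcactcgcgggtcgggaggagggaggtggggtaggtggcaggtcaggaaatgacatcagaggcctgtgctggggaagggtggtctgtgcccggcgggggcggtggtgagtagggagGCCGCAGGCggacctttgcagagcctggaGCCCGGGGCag
Aco1 promoter, chr4:40143015-40143314, + strand: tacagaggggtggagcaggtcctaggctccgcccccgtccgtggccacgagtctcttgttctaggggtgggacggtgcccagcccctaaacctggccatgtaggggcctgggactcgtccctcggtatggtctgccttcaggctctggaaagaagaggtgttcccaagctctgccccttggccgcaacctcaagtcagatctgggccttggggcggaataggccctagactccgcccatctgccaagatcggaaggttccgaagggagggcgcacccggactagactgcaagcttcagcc
Rap2a promoter, chr14:120478211-120478510, + strand: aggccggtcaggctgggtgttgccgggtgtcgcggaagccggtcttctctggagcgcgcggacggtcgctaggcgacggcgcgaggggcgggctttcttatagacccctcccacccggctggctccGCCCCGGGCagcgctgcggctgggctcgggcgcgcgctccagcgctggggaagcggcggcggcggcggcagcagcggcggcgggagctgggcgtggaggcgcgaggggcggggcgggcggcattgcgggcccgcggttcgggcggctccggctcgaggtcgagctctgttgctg
Mxd1 promoter, chr6:86669110-86669409, - strand: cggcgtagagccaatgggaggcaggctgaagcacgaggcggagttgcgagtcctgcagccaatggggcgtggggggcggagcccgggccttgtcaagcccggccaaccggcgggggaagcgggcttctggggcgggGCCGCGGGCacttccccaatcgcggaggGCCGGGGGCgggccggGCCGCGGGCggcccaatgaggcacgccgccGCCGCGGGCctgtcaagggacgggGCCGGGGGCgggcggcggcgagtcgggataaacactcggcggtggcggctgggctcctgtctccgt
Cnksr1 promoter, chr4:134238350-134238649, - strand: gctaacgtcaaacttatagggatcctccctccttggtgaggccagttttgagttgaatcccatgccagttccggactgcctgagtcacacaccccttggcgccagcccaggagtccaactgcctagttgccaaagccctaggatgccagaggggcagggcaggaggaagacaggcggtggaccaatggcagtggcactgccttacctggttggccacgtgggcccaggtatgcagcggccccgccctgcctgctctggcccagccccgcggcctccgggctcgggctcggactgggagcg
Sync promoter, chr4:129287371-129287670, + strand: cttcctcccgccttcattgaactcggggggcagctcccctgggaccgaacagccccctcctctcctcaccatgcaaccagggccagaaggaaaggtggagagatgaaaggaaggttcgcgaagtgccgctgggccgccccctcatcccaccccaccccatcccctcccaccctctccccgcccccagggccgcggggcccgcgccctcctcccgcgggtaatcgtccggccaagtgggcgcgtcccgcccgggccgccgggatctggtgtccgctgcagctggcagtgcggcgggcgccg
Eif1ax promoter, chrX:159371928-159372227, + strand: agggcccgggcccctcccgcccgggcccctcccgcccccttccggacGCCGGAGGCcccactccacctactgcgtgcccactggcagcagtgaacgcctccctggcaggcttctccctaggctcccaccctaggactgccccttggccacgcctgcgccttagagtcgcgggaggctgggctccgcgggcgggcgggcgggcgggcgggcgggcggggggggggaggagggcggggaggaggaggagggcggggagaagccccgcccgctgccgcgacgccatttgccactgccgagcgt
Peli1 promoter, chr11:21091074-21091373, + strand: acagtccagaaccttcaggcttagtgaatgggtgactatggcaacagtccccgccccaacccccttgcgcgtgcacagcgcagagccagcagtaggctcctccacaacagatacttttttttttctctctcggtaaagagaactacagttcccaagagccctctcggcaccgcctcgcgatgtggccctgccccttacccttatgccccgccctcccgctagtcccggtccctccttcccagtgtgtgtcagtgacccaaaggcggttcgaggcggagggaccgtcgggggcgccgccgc

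Mxd1 held 5 copies of the sequence, Zyx 2, and Rap2a and Eif1ax 1 each, while Aco1, Cnksr1, Sync and Peli1 held none in this window. Of all 21263 promoters in the table, covering 17492 of 21900 genes, 19.9% held GCCNNNGGC. The share was 38.5% (interval 37.1 to 40.0) for 4290 promoters with a TFAP2A peak in both lists, 28.9% for 304 WT-only, 27.2% for 2041 mutant-only and 13.2% for promoters with neither. Base composition moved with these groups, with a median GC content of 65.0%, 62.0%, 62.3% and 52.3%. Among promoters with H3K4me3 in both lines, those with TFAP2A in both lists had 38.5%, those with a mutant-only peak 25.3% and those with neither 14.98%. Reweighted to the GC content of the first group, the last 2 shares were 28.5% and 20.1%. The same letters in another order, GGCNNNGCC, were found in 50.5%, 44.3% and 42.7% of these groups after the same reweighting. With a spacer longer by 1 base between the same ends, the shares were 35.0%, 28.2% and 23.3%. The 3 sequences can overlap each other, and a match is a description of the letters, not a binding site.

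Over all protein-coding genes, a TFAP2A gene-end peak was present in both lists for 5117 of 21900 genes (23.4%), in the WT list alone for 263 (1.2%) and in the mutant list alone for 2328 (10.6%). In total the WT list marked 24.6% of genes and the mutant list 34%. At equal depth the mutant-only genes numbered 1437 (6.56%) and the WT-only genes 556 (2.54%). At equal background they numbered 2099 and 321. Single genes were followed at equal depth alone. For genes with a known start, the start carried TFAP2A far more often than the other end, at 4578 against 419 of 17492 genes in the WT list and at 6286 against 625 in the mutant list. Most mutant-only genes carried the promoter mark in both lines: 86.5% had H3K4me3 at a gene end in both and 7.35% in the mutant line alone. The other marked classes were alike in this, with H3K4me3 in both lines at 96.4% of genes marked in both lists and 83.7% of WT-only genes. Of genes with neither, 24.7% had it. H3K4me3 in the mutant line alone was at 1.72%, 3.04% and 5.97% of these 3 classes. TFAP2B, profiled in the mutant line, was at a gene end of 78.9% of genes marked in both lists, 26.4% of mutant-only genes, 8.37% of WT-only genes and 0.881% of genes with neither.

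The AP-2 inhibitor gene Kctd15 held the strongest TFAP2A site of the WT list. This peak (chromosome 7, 34629900 to 34631090) lay 5909 bp from the gene, had a fold enrichment of 141 and was called again in the mutant list with 204. A library peak was present there in 16 of 22 lists, TFAP2A included, above the limit of 15 used to leave out commonly called regions when genes were ranked. A second site at a Kctd15 gene end had 60.2 in the WT list against 31.4 in the mutant list. Kctd1, the related inhibitor, carried a weak gene-end peak in both lists, with 7.03 and 8.48. Tfap2a itself had no gene-end peak in either list, and within 20 kb it had 2 WT and 3 mutant peaks. The WT ones lay 6641 and 3532 bp from a gene end, and both were shared. Of the 10 genes of the TFAP2 family and its partners, 2 (20%, against 24.6% of all genes) were marked in the WT list and 4 (40%, against 34%) in the mutant list. The added Tfap2e and Cited2 peaks were dropped at equal depth.

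Of 14 genes known as AP-2 targets, 5 (35.7%, against 24.6% of all genes) were marked in the WT list. The mutant list marked 6 (42.9%, against 34%). Erbb3, a neuregulin receptor of the neural crest lineage, had a gene-end fold enrichment of 24.7 in the WT list against 47.2 in the mutant list, at a peak that also lies at the end of its neighbour Pa2g4. Its other end had 2 mutant-only peaks, 147 and 750 bp away with 5.63 and 3.98, and no WT peak. The thrombin receptor F2r had 40.0 and 31.4, and the growth factor Vegfa 12.3 and 14.6. The adhesion molecule Mcam had 7.99 and 9.33, and the survival gene Bcl2 3.67 and 8.46. Erbb2, a receptor kinase that pairs with ERBB3, was marked in the mutant list alone with 7.64, also at equal depth. The epithelial cadherin gene Cdh1 had no gene-end peak but a shared site inside the gene, 7.78 (WT list) and 31.4 (mutant list). Next to it each list had a site of its own, 20126 bp (WT, 7.03) and 22737 bp (mutant, 6.79) from the nearest gene end. The list's 7.14% mutant-only share was below the 10.6% of all genes.

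Of 22 pigment cell genes, 4 (18.2%, against 24.6% of all genes) carried TFAP2A at a gene end in the WT list: Pax3, Pmel, Mc1r and Erbb3. The mutant list marked 5 (22.7%, against 34%), adding Sox10, whose gene-end peak of 5.09 was dropped at equal depth. The H3K4me3 lists bear on the labelled cell type, and they marked 8 of the 22 genes in the WT line against 10 in the mutant line (49.3% and 53.8% of all genes). Mitf, Pax3, Pmel, Mc1r, Rab38, Gpnmb, Erbb3 and Mlph had H3K4me3 in both lines, and Sox10 and Rab27a in the mutant line alone. The melanin enzyme genes Tyr, Tyrp1 and Dct and the melanosome antigen gene Mlana had none in either line. Around Pax3, a regulator of melanocyte precursors, 3 WT and 3 mutant peaks lay within 20 kb, all shared, with 28.3 and 59.4 at the highest. Around Mitf lay no WT peak and 2 mutant peaks, the stronger with 9.33 and overlapping SOX10 antibody U, at a place where the WT line had ARID1A, SMARCC1 and UTX. Kit, Ednrb, Tyr, Dct and Mlana had no TFAP2A peak within 20 kb in either list. Within 20 kb of the 22 genes lay 12 WT and 30 mutant TFAP2A peaks, a ratio of 2.5, where all genes gave 1.54. More mutant than WT peaks were found at 10 of the 22 genes, 45.5% against 33.8% of all genes.

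Neural crest and mesenchymal state genes had the largest mutant-only share of the 15 lists apart from ribosomal protein genes. Of 24 genes, 11 (45.8%, against 24.6% of all genes) were marked in the WT list and 17 (70.8%, against 34%) in the mutant list. In the mutant list alone were 7 (29.2%, against 10.6% of all genes): the transcription factors Sox2 (fold enrichment 18.7), Twist1 (10.2), Sox9 (9.31) and Snai2 (6.79), the nerve growth factor receptor Ngfr (8.60), the receptor kinase Axl (8.48) and the matrix gene Tgfbi (5.37). All 7 stayed mutant-only at equal depth. The marked genes Snai1, Nes and Vim were shared, with 22.8, 12.1 and 16.1 (WT list) and 36.8, 24.6 and 17.3 (mutant list). The homeobox gene Msx1 was marked in the WT list alone, with 5.35. H3K4me3 was present at 21 of these 24 genes in the WT line against 23 in the mutant line, where 49.3% and 53.8% of all genes had it. Ngfr was one of the genes with the mark in the mutant line alone. Peaks within 20 kb of these genes qualify the gene-end counts. Around Twist1 and Ngfr lay 2 mutant TFAP2A peaks each and around Sox2 lay 3, all mutant-only, with no WT peak, and Snai2 had 1 mutant-only peak. The Axl, Tgfbi and Sox9 loci each held a shared site. At Tgfbi it had 7.78 in the WT list and was outside the gene-end window, with 10.8 the highest mutant value of the locus, and at Sox9 it had 3.56. At Axl a peak inside the gene, 6567 bp from its end, had 38.9 in the WT list, where the mutant list gave 54.3. Over the 24 loci, 18 (75%) had more mutant than WT peaks, where 33.8% of all genes did. Of the 24 loci 22 held any mutant peak, against 12708 of all 21900 genes. The lists with the next highest shares were ERBB and MAPK genes (65%) and COMPASS genes (64.7%). Locus counts were not repeated at equal depth. An earlier reading of these data had shown most of the 7 genes, so the list is no independent support.

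Of 20 ERBB and MAPK genes, 11 (55.0%, against 24.6% of all genes) were marked in the WT list. The mutant list marked 13 (65.0%, against 34%), and 10 were marked in both. The MAPK feedback inhibitors Spry4 (36.1 and 41.5) and Spry2 (26.1 and 29.4) had strong sites in both. The phosphatase gene Dusp4 had 5.86 in the WT list, at percentile 19.7 of that list, and 25.5 in the mutant list, at percentile 88.0. Braf, Nras and Erbb2 were marked in the mutant list alone, Nras not at equal depth, and Spry1 in the WT list alone with 7.03. Of 18 IGF signalling genes 7 (38.9%) and 8 (44.4%) were marked, with Pik3ca in the mutant list alone. Of 20 glycolysis genes 10 and 12 were marked, 50% and 60%, with Gapdh at 40.6 and 39.0 and Hk2 at 33.9 and 59.99. The mutant list alone marked Pfkl and Pgam1. The mutant-only shares of these lists, 5.56% for IGF signalling and 10% for glycolysis, were below the 10.6% of all genes. H3K4me3 was present at 18 and 19 of the 20 ERBB and MAPK genes (WT and mutant line). It was at 11 and 12 of the 18 IGF genes and at 17 and 18 of the 20 glycolysis genes. Over all genes it was at 49.3% and 53.8%, so the all-gene shares include many genes without the promoter mark. Shares among genes with H3K4me3 alone were not computed.

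Among genes of the chromatin machinery, 9 of 17 COMPASS genes and 12 of 27 SWI/SNF genes were marked in both lists, and 5 and 10 in neither. Of all 21900 genes 23.4% were marked in both lists and 14192 genes in neither. Of the 17 genes of the COMPASS family of H3K4 methyltransferases, 9 (52.9%, against 24.6% of all genes) were marked in the WT list. The mutant list marked 12 (70.6%, against 34%), where Kmt2d itself, Setd1b and Wdr5 were added, Setd1b not at equal depth. Of the SWI/SNF genes, 12 (44.4%) and 17 (63.0%) were marked, and of the 5 mutant-only ones Smarca2 and Bcl7a were left at equal depth while Arid1a, Phf10 and Bicral were not. The widest gap was at ribosomal protein genes, of which 12 of 81 (14.8%, against 24.6% of all genes) were marked in the WT list. The mutant list marked 39 (48.1%, against 34%). Mutant-only peaks marked 29 of the 81 (35.8%, against 10.6% of all genes), and 20 (24.7%, against 6.56%) at equal depth. H3K4me3 was present at 77 of the 81 in each line, at 15 of the 17 COMPASS genes and at 24 of the 27 SWI/SNF genes. Over all genes it was at 49.3% (WT) and 53.8% (mutant). The all-gene shares of TFAP2A thus include many genes without the promoter mark, and shares among genes with H3K4me3 alone were not computed.

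Markers of other cell types differed by list, beside 24.6% (WT) and 34% (mutant) of all genes marked. Of 20 keratinocyte and cornified envelope genes 4 (20%) were marked by the WT list and Sfn alone, 1 gene (5%), by the mutant list. The WT-only ones were Krt10, Sprr2a1 and Sprr2a3. Fibroblast markers numbered 3 (30%) and 1 (10%) of 10, with Pdgfrb and Thy1 in the WT list alone and Col1a1 in both. Of 8 blood cell markers the WT list marked Cd68 and the mutant list none, of 6 endothelial markers the mutant list marked Flt1 and the WT list none, and of 12 silent tissue-restricted genes both marked Apoa2. H3K4me3 was found at 3 and 5 of the keratinocyte genes, 4 and 4 of the fibroblast genes and 1 and 1 of the blood cell genes (WT and mutant). Of all genes 49.3% and 53.8% had it. Counted over the genes with 20 kb on each side, the 2 lists had equal numbers of peaks at keratinocyte genes, 9 and 9, and at fibroblast genes, 9 and 9. Blood cell markers had 7 WT and 11 mutant peaks and endothelial markers 2 and 5. Summed over all genes, where a peak can count at more than 1 gene, there were 18555 and 28594, a mutant to WT ratio of 1.54. Beside it the ratio was 1 at keratinocyte and at fibroblast genes, 1.57 at blood cell and 2.5 at endothelial genes. Whether other cells were part of these cultures was not tested.

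**Figure D3:**
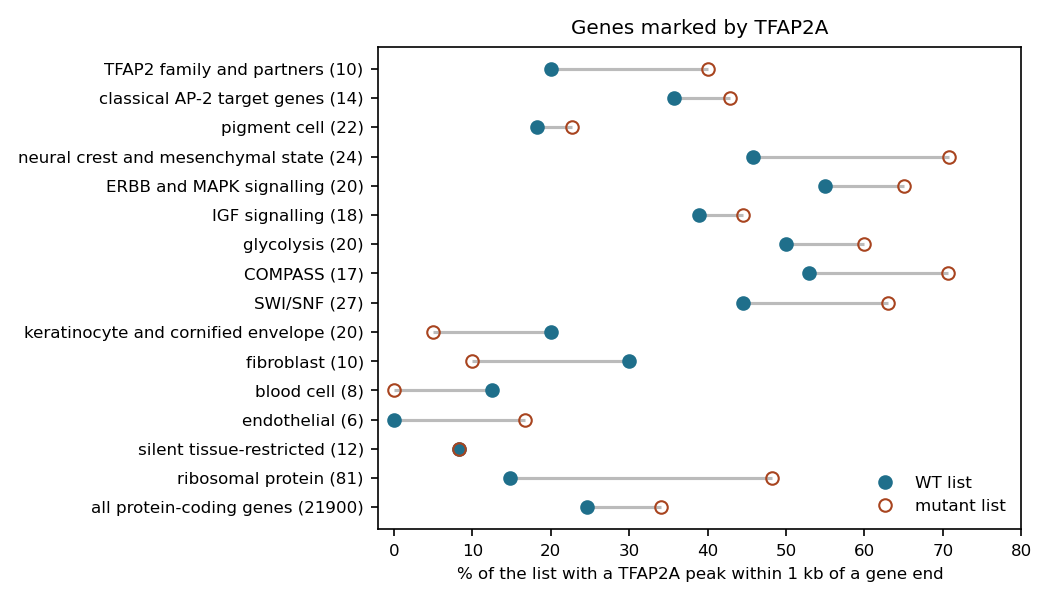
Percent of each gene list with a TFAP2A peak within 1 kb of a gene end, filled circles for the WT list and open circles for the mutant list, with the number of genes in brackets and all protein-coding genes in the last line. Neural crest and ribosomal protein genes show long lines toward the mutant list, keratinocyte and fibroblast markers lines toward the WT list.

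Far from gene ends the strongest sites of 1 line were stronger, within their list, than the line-only sites at genes in the WT list. Of 1167 WT-only peaks beyond 5 kb with no mutant TFAP2A peak within 5 kb, the first had a fold enrichment of 42.3 (chromosome 13, 61619399 to 61620246, near Gm21933). Then came a site inside Aspa (37.8), one inside the collagen gene Col15a1 (37.2), one inside the adaptor gene Shc2 (33.3) and one 19724 bp from the integrin gene Itga3 (33.2). Sites inside Zmiz1, the basement membrane gene Nid2, the actinin gene Actn1 and Mcf2l and one 81357 bp from Hs6st1 followed, at 23.3 to 32.8. All 10 overlapped a WT ARID1A peak, as did 62.6% of all WT-only peaks beyond 5 kb, and none overlapped a peak of any mutant library.

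The corresponding mutant-only sites, 4209 in all, were led by a peak with 66.2 that lay 37439 bp from the immediate early gene Ier3 (chromosome 17, 35783920 to 35784274). Others lay 24644 bp from Plekha2 (50.9), between Sox10 and Pick1 (49.2), 104507 bp from Oxgr1 (45.8), inside the xylosyltransferase gene Xylt1 (45.3), 59773 bp from Mb21d2 (44.1) and inside the cadherin gene Cdh13 (41.6). A site on the Y chromosome and sites 121563 bp from Foxn2 and 11430 bp from Olfm1 completed the 10, at 36.2 to 37.9. All 10 overlapped TFAP2B, 9 overlapped ARID1A and 6 overlapped a SOX10 peak in the mutant line. They belong to the strongest of 10 classes, where 93.9% of mutant-only peaks overlapped TFAP2B and 53.1% SOX10 antibody U. Of all mutant-only peaks beyond 5 kb, 55.3% overlapped ARID1A. In the WT line, 2 of the 10 overlapped a peak, 1 of ARID1A and 1 of UTX.

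Sites of 1 list also formed runs. A run is a series of line-only peaks with gaps of at most 20 kb and no shared peak between them. Runs of at least 3 peaks numbered 16 in the WT list, with 52 of 2038 WT-only peaks, and 206 in the mutant list, with 701 of 8784. Denser line-only peaks fall within 20 kb of each other more often. Runs were not counted again at equal depth or equal numbers, so these counts do not compare the clustering of the 2 lines. Runs of at least 5 numbered 1 and 21. The WT run of 5 spanned 24.9 kb of Arhgef17, with fold enrichments of 4.97 to 16.0. Over that stretch the WT line had 14 peaks of all targets and the mutant line 2, both H3K4me3. The next WT runs lay in the protocadherin gene Pcdh1 (4 peaks, up to 43.4, with 1 mutant-only peak elsewhere in the stretch), the filamin gene Flnc (4), Dazap1 (3) and the procollagen peptidase gene Adamts2 (3).

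In the mutant list the longest runs held 7 peaks. One, of 31.9 kb, crossed Ndufa4l2, the serine hydroxymethyltransferase gene Shmt2, Nxph4 and the lipoprotein receptor gene Lrp1. One crossed Plec, Parp10 and Grina, with 1 WT-only peak within it, and one led over 31.3 kb into Cdkn1a, the p21 cell cycle inhibitor and an AP-2 target, with 12.7 at its highest. The WT list had no peak within that run and a shared one just beyond its end, at 6.29, which had 11.03 in the mutant list. Runs of 6 lay inside the cytolinker gene Dst, again with 1 WT-only peak, and between Sox10 and Pick1.

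Across the Sox10 run no target of the WT line had a peak. The 6 mutant TFAP2A peaks over 21.3 kb (chromosome 15, 79192834 to 79214098) had fold enrichments of 28.0, 4.24, 7.67, 15.3, 49.2 and 7.64. The mutant line had 20 peaks of all targets there, among them 4 of ARID1A and 5 of SOX10 antibody U. Within 20 kb of the Sox10 gene itself, just before the run, lay 5 more mutant TFAP2A peaks, with 18.7 at the highest, and no WT TFAP2A peak. SOX10, which directs melanocyte and glial fate from the neural crest, was profiled in the mutant line only among the lists used here.

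**Figure D4:**
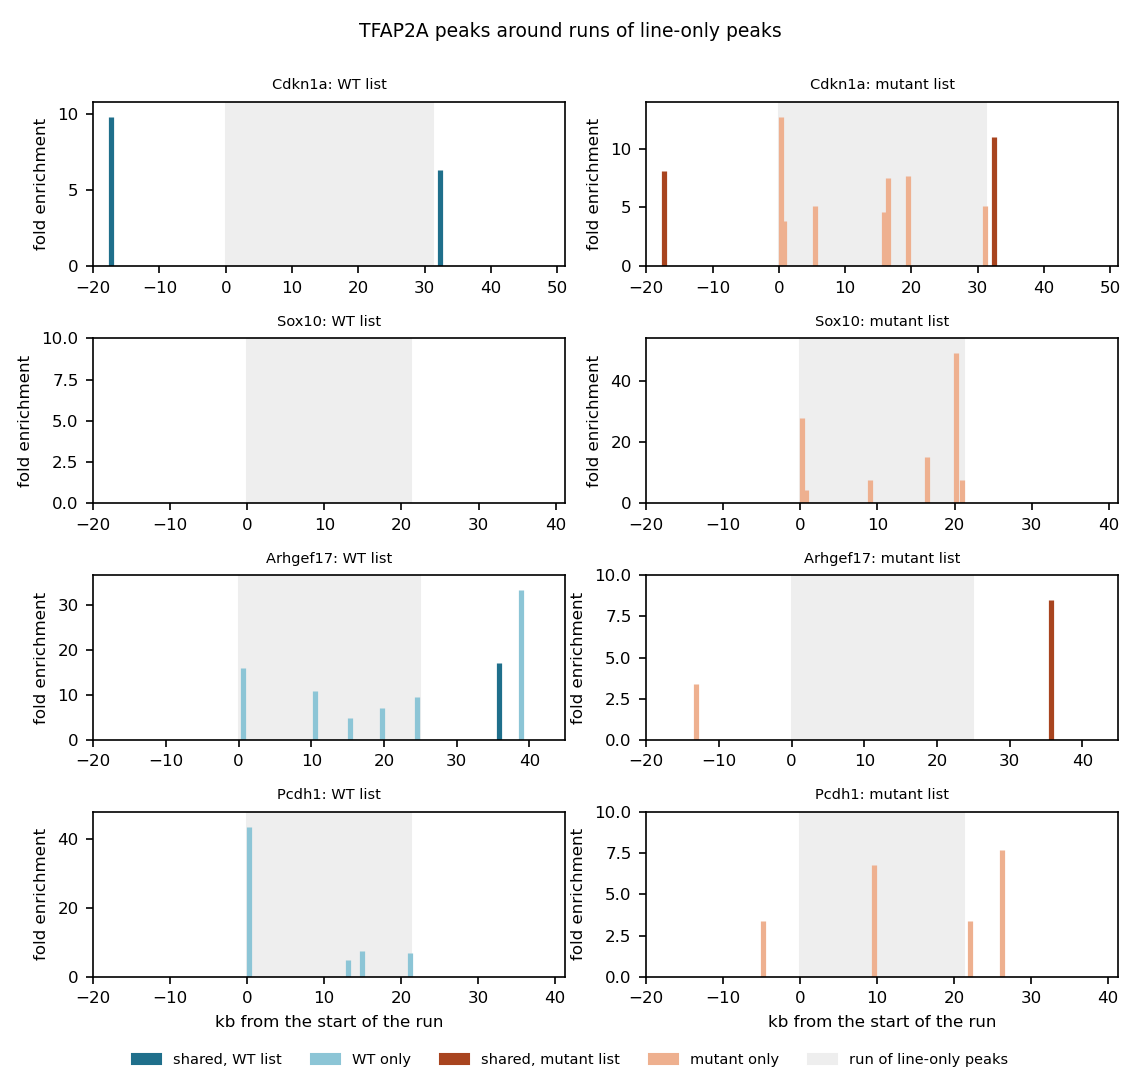
TFAP2A peaks of the WT list (left) and the mutant list (right) around 4 runs of line-only peaks, by distance from the run's start in kb (x axis) and the authors' fold enrichment (y axis, own scale in each panel). Dark lines are shared peaks, light lines line-only peaks and grey the run. At Sox10 the WT panel is empty, the Arhgef17 run holds no mutant peak, and the Pcdh1 run holds 1 mutant-only peak among its 4 WT-only peaks.

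Single neighbours were more common than runs. Another peak of the same list lay within 10 kb of 33.5% of shared and 32.4% of line-only peaks in the WT list, and of 45.8% of shared and 39.7% of line-only peaks in the mutant list. For WT-only peaks the neighbour was a shared peak in 24.8% and another WT-only peak in 11.2%, some having both. For mutant-only peaks these shares were 24.7% and 23.2%. With equal numbers of top peaks, a neighbour within 10 kb was found for 33.7% of shared and 32.5% of line-only WT peaks. In the mutant list it was then found for 33.9% of shared and 28.5% of line-only peaks. Both line-only classes were spread over the chromosomes, with WT-only peaks at 12.6% (chromosome 19) to 22.1% (chromosome 18) of WT peaks. Mutant-only peaks made up 42.8% (chromosome 8) to 54.3% (chromosome X) of mutant peaks.

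The other targets split shared from line-only sites in a graded way. In the WT line, ARID1A overlapped 56.9% of shared and 54.4% of WT-only TFAP2A peaks. SMARCC1 overlapped 25.5% and 28.8%, and UTX 40.1% and 29.1%. H3K4me3 overlapped 57.4% and 19.1%, Menin, which joins the methyltransferases KMT2A and KMT2B, 44.3% and 14.7%, and KMT2D 34.4% and 18.9%. Reweighted to the strength of WT-only peaks, shared peaks had 43.3% ARID1A, below the 54.4% of WT-only peaks, and 22.4% KMT2D, near their 18.9%. SMARCC1 was then at 19.3% and UTX at 27.7% of shared peaks, below the 28.8% and 29.1% of WT-only peaks. H3K4me3 (56.6%) and Menin (39.2%) stayed higher at shared peaks. Beyond 5 kb, UTX was at 38.8% of shared (same reweighting) and 33.9% of WT-only peaks, and SMARCC1 at 39.8% and 35.5%. Within position classes ARID1A was not lower at shared sites, with 64.9% of shared (same reweighting) and 62.6% of WT-only peaks beyond 5 kb, and 41.9% and 23.8%, without reweighting, at gene ends. ARID1A without H3K4me3 was the most common state of WT-only sites, at 49.9%, against 32.2% of shared sites. Of the WT-only sites 27.6% had ARID1A in the WT line alone and 26.7% in both lines. In the mutant line, ARID1A was found at 28.9% of WT-only sites, TFAP2B at 2.75% and SOX10 antibody U at 2.45%.

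WT peaks with KMT2D were shared in 89.5% of cases (3297 of 3683) and those without in 79.2% (6301 of 7953). Reweighted to the strength of the peaks with KMT2D, the peaks without it gave 87.2%. The pairs by position were not reweighted for strength. They were 98.3% and 91.8% at gene ends, 83.6% and 68.6% at 5 to 50 kb, and 80.7% and 63.8% beyond 50 kb. Among the targets with over 1000 peaks in both lines, WT peaks of H3K4me3 were shared in 91.7%, TFAP2A in 82.5%, Menin in 77.0%, ARID1A in 70.9%, UTX in 53.3% and SMARCC1 in 16.9%. Caller depth differed between these lists as well, so this order carries no comparison of targets.

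In the mutant line, TFAP2B overlapped 66.0% of shared and 17.8% of mutant-only TFAP2A peaks. Reweighted to the strength of mutant-only peaks, the shared figure was 32.6%. TFAP2B presence followed TFAP2A strength in both classes, from 13.8% to 99.1% of shared peaks and from 4.59% to 93.9% of mutant-only peaks between the weakest and strongest of 10 classes. ARID1A overlapped 63.6% and 44.2%, H3K4me3 60.03% and 38.7%, Menin 48.7% and 27.3% and UTX 32.5% and 23.4%. SMARCC1 overlapped 8.01% and 5.75%. Reweighted in the same way, the shared figures were 46.3% for ARID1A, 50.9% for H3K4me3 and 36.2% for Menin, still above the mutant-only ones. For UTX (18.3%) and SMARCC1 (4.85%) they were below. Beyond 5 kb, UTX was at 27.7% of shared (reweighted) and 32.0% of mutant-only peaks, and SMARCC1 at 9.59% and 8.86%.

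Before reweighting, SOX10 departed from the order of the targets above. After it, UTX and SMARCC1 had the same order as SOX10 over all positions together. Antibody U peaks overlapped 15.6% of shared and 17.5% of mutant-only TFAP2A peaks, and reweighted to equal strength the shared figure was 8.07%. Beyond 5 kb the shares were 24.3% (13.6% reweighted) for shared and 25.3% for mutant-only peaks. At gene ends they were 8.88% and 5.59%. In each of the 10 strength classes the mutant-only share was the higher one, for example 53.1% against 29.0% in the strongest class, which held 49 mutant-only peaks. The second SOX10 antibody, T, overlapped 3.94% and 4.38%. In the WT line, mutant-only sites held ARID1A in 24.9% and H3K4me3 in 31.8%.

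**Figure D5:**
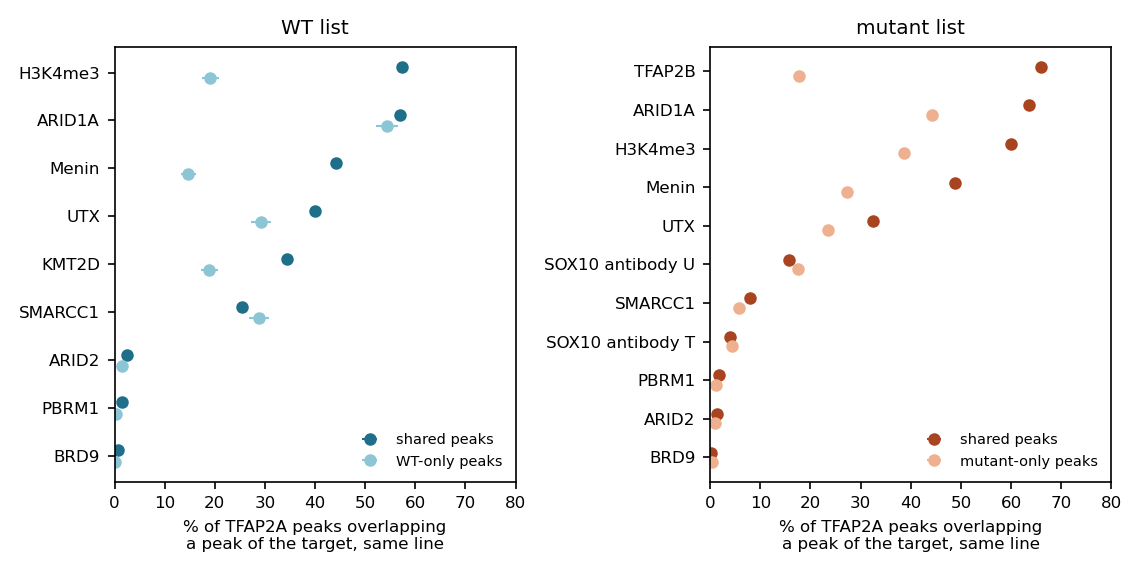
Percent of TFAP2A peaks (x axis) that overlap a peak of each target in the same line, for shared peaks (dark) and line-only peaks (light), with Wilson 95% intervals. H3K4me3 is at 57.4% and 19.1% in the WT list, TFAP2B at 66.0% and 17.8% in the mutant list, and SOX10 antibody U is the target with over 10% where the mutant-only peaks are not lower.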

How the data were processed

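Peaks were aligned and called by the authors with Bowtie2 and MACS2 on mm10, with FastQC and MultiQC, per the submitters' processing notes, 1 list per library. Their versions and thresholds and the caller's control are not given in the sources used here. Per the file layout, each deposited peak carries a score, a fold enrichment (ratio), a −log10 p and a −log10 q. All deposited scores, fold values and −log10 values are the authors' own. The lowest −log10 q was 1.32 (WT) and 1.34 (mutant). The 2 IgG control samples were not analysed here.

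The gene table was RefSeq for GRCm38.p6, with 21900 protein-coding genes. Peaks were shared from an overlap of 1 bp. Neighbours lay within 10 kb. Caller depth was solved from fold enrichment and −log10 p at the summit, with the shortest peak as fragment length and a genome of 1870000000 bp. Summits could not be solved for 16 WT and 75 mutant peaks. For equal depth, summit fragments and background of the mutant list were scaled by 0.553, and peaks under the lowest WT −log10 p were dropped. For equal background the factor was 0.784. Reweighting used 10 classes of fold enrichment. Overlap, distance and depth steps were tested on simulated data.

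Named genes, leaving out regions called in at least 15 of 22 lists, were the 10 highest genes or distal peaks of each class, the 5 longest runs and widest peaks per list, and members of 15 gene lists. Line-only names needed no peak of the other list within 5 kb. Other names are marked as chosen after their values were seen. The members and lists were chosen with earlier results of these data known. Scripts ran in Python 3.11.15 with SciPy 1.17.1, Matplotlib 3.10.9, pandas 2.3.3 and NumPy 2.4.6.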

Additional observations from a re-analysis of the deposited data

How the results depend on the processing

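No paired analysis was possible because each line and target had 1 library, and for the same reason no replicate was left out. A weak site missing from a list was not called at that depth, which does not show that it was absent. The equal-background setting was chosen after seeing the data. Gene-end shares of shared peaks over line-only peaks, the width order, the gene counts and TFAP2B kept their order in every setting in which they were recomputed. Not every setting applied to each of them: neighbours at 25 kb, for example, left the gene-end shares as first given. Neighbours of shared against WT-only peaks changed order at a reciprocal overlap of 50%, with summits within 500 bp and at 25 kb. At matched strength, ARID1A and UTX changed order at shared against WT-only sites in the WT line. In the mutant line UTX, SMARCC1 and the sparse ARID2 changed order at shared against mutant-only sites. The causes were not tested unless stated.

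WT and mutant sharing was 79.6% and 58.0% with a −log10 q minimum of 5, 69.2% and 43.4% with a reciprocal overlap of 50%, 81.4% and 51.5% by summits, 75.01% and 63.5% at equal depth, 69.0% and 69.2% with equal numbers of top peaks, and 81.0% and 55.0% at equal background. WT-only gene-end shares were 17.3% (q), 27.3% (reciprocal), 18.02% (summits), 20.9% (equal depth), 24.2% (equal numbers) and 21.8% (gene end of 2.5 kb). Mutant-only gene-end shares were 32.8% (q), 31.7% (reciprocal) and 38.0% (2.5 kb). Mutant-only widths were 316 bp (q), 261 bp (reciprocal), 293 bp (equal depth), 315 bp (equal numbers) and 262 bp (equal background), and WT-only widths 365, 360.5, 331, 334 and 344 bp (q, reciprocal, summits, equal depth, equal numbers).

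Neighbours of mutant-only peaks were found for 32.6% (q), 42.4% (reciprocal), 32.2% (equal depth), 28.5% (equal numbers), 37.9% (equal background) and 58.8% (25 kb), and of WT-only peaks for 29.2% (q), 35.1% (reciprocal), 34.6% (summits) and 52.7% (25 kb). WT-only and mutant-only genes numbered 556 and 1437 at equal depth and 847 and 1034 with equal numbers. TFAP2B at mutant-only peaks was 30.4% (q), 22.3% (reciprocal), 18.8% (summits), 26.4% (equal depth), 32.4% (equal numbers), 19.5% (equal background) and 48.8% at the strength of shared peaks. KMT2D at WT-only peaks was 21.8% (q), 22.7% (reciprocal) and 27.6% at the strength of shared peaks. The remaining 43 values of these results stayed within their interval or within 1.5 times of their count.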
